A study of Mus musculus with 9 samples.

Results

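The genes of glycolysis, lactate handling and glucose transport are described here as a set of 31 genes out of the 24012 in the deposited expression table. They were chosen by name, and all 31 were found, with Pkm listed under its older symbol Pkm2. Glycolysis splits glucose into pyruvate in the cytosol and yields ATP and NADH on the way. Lactate dehydrogenase turns pyruvate into lactate, monocarboxylate transporters carry lactate across the plasma membrane, and pyruvate dehydrogenase kinases hold pyruvate back from mitochondrial oxidation. Many of these genes are known targets of the hypoxia-inducible factor HIF-1, and the chromatin deacetylase Sirt6 is known as a repressor of them that acts together with HIF-1.

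The libraries hold RNA of mouse pancreatic ductal adenocarcinoma (PDAC) cells, taken from lungs after tail vein injection. The group labelled DTC was sorted by GFP at 5 days, and the groups mCherryHigh and mCherryLow were sorted on GFP and on high or low Gstt1-mCherry signal at 6 weeks, with 3 libraries in each group. All 9 libraries carry the same genotype on their labels, SIRT6F/F/p48-Cre/p53F/+KrasL/+, in which Cre is driven from the pancreatic gene p48, and the same pair of markers, GFP and Gstt1-mCherry. The labels do not say which host the cells were injected into, whether they came from 1 line, or whether each library is a mouse of its own, and p-values therefore measure a spread that may be technical. Since every group carries floxed Sirt6, no comparison here is between Sirt6-deleted and Sirt6-intact cells. Sirt6 itself was at 9.13, 3.41 and 9.74 CPM in DTC, 24.9, 7.55 and 14.01 CPM in mCherryHigh and 12.2, 10.0 and 10.0 CPM in mCherryLow, and a gene-level value says nothing of the deleted part.

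Levels are in CPM, the reads of a gene scaled by the library total, and library values are given in the order DTC 1, 2 and 3, mCherryHigh 1, 5 and 6, and mCherryLow 1, 5 and 6. Library totals were between 923988 and 2052623 reads in DTC, between 643748 and 9800173 in mCherryHigh, and between 2051266 and 11861241 in mCherryLow. A count of 0 allows up to 3 reads, or 4.66 CPM in mCherryHigh 1 and 0.253 CPM in mCherryLow 6, counting error only. The DTC libraries form a label series of their own, so that series, the 5-day time point and the sort by GFP cannot be told apart from being DTC. The DTC columns are also written with up to 15 significant digits, against 10 in the other columns. The entries Gm10800, Gm10801 and Lars2 together took 11.8%, 3.47% and 15.1% of the DTC totals, against at most 0.585% in any mCherryHigh or mCherryLow library.

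Markers of cells other than the tumour were also higher in DTC. The summed level of 12 macrophage and monocyte markers was 4561, 3883 and 8702 CPM in DTC, between 318 and 764 CPM in mCherryHigh and between 433 and 666 CPM in mCherryLow, and all 12 were detected in every group. Of these 12 genes, 9 passed the test as higher in DTC than in mCherryLow, and 8 as higher than in mCherryHigh. The 8 epithelial markers of the tumour summed to 5345, 6054 and 439 CPM in DTC, between 2161 and 5995 CPM in mCherryHigh and between 1797 and 2579 CPM in mCherryLow. Of these 8, 1 was called higher and 1 lower in DTC than in mCherryLow, and 0 and 1 than in mCherryHigh. DTC 3 stood apart, with the lowest epithelial and the highest macrophage sum of all 9 libraries, and the effect of leaving it out is given below for the counts and the called members. Endothelial markers summed to between 209 and 398 CPM in DTC, between 34.0 and 55.9 CPM in mCherryHigh and between 15.6 and 33.8 CPM in mCherryLow, and alveolar and club cell markers to between 165 and 506, between 12.4 and 45.3 and between 9.30 and 27.1 CPM in the same groups. Called higher than in mCherryLow were 8 of 8 endothelial and 6 of 8 alveolar and club cell markers, and higher than in mCherryHigh 5 of 8 and 6 of 7. The sums for neutrophils, lymphocytes and red cells were also higher in DTC, at 63.9 to 161, 58.0 to 290.0 and 76.1 to 219.7 CPM, against at most 35.7 CPM in any other library (called higher than in mCherryLow were 5 of 6, 5 of 5 and 3 of 4). Fibroblast and pericyte sums overlapped between the groups. Most of these markers were under 5 CPM in mCherryLow (7 of 8 endothelial, 6 of 8 alveolar and club cell, and all neutrophil, lymphocyte and red cell genes), and 66.9% of all such low genes tested were called higher in DTC. The macrophage list had 6 of 12 under 5 CPM. In bulk RNA, fewer cells of a type and less RNA per cell cannot be told apart, and the part of these cells in the results below was not tested.

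Several enzymes of lower glycolysis have near-identical copies elsewhere in the genome, which bears on how their reads could be counted. Each transcript was divided into 50-base windows and compared with all annotated mouse transcripts (GENCODE, build GRCm38.p6), a later build than the authors' mm9. The share of windows found in no other gene was 17.5% for Gapdh, 27.8% for Eno1, 32.04% for Pgk1, 58.5% for Pgam1 and 65.6% for Pkm, and 10 of the 31 members were below 90%. Gapdh shared a window with 218 other genes, of which 213 are annotated as pseudogenes and 66 are in the table. The windows below, from genes on chromosomes 6, X and 4, are shown because a read that lies within any of them matches several genes. Each base is shared, so none is set in capitals. The Gapdh window starts at coding position 415 and occurs in 83 other genes, the Pgk1 window starts at coding position 927 and occurs in 3, and the Eno1 window starts at coding position 727 and occurs in 2.
Gapdh: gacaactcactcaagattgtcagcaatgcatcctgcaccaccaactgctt
Pgk1: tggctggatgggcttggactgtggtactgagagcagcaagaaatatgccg
Eno1: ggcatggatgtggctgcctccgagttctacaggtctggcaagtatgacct

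In DTC the set split in 2 directions. Set against mCherryLow, 7 members rose and 9 fell by limma on log2(CPM + 1) with Benjamini-Hochberg adjustment, while 34.2% of all 18701 genes tested were called higher and 8.87% were called lower. Among the 10924 genes averaging 5 CPM or more in mCherryLow, as all members that fell did, 14.9% were called lower. The median difference of the 31 members was -0.43 on the log2(CPM + 1) scale, against 0.59 for all genes tested. Groups did not overlap for 8 members higher and 9 lower in DTC, beside 39% and 14.2% of all genes. Without DTC 3, 8 members were called higher and 8 lower, beside 30.9% and 7.02% of all genes. The median of the members was then -0.27, against 0.60 for all genes. The members that rose were Slc2a3, Hk3, Pfkfb2, Gapdh, Pgk1, Eno2 and Ldhb. Those that fell were Slc2a1, Gpi1, Pfkl, Pfkp, Pfkfb4, Aldoa, Slc16a3, Pdk1 and Pdk3. Median-of-ratios scaling of the CPM gave 5 higher and 14 lower, beside 30.1% and 16.3% of all genes, and quantile normalization 4 and 8, beside 12.1% and 10.9%. edgeR gave 5 and 11 (24.4% and 16.6% of all genes) and DESeq2 5 and 11 (27.5% and 15.7%). Rescaling to genes with at least 90% unique windows, added after seeing the data, gave 7 and 6 (36.6% and 6.62%). Scaling also moved the median of all genes, to 0.29 with median-of-ratios and -0.14 under quantile normalization, and among the called members only Ldhb changed its sign with it.

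Set against mCherryHigh, 5 members rose and 6 fell in DTC, beside 23% and 7.19% of all 19700 genes tested. The median over the 31 members was -0.58, against 0.55 for all genes. Without DTC 3 it was -0.16, against 0.53, and 7 were called higher and 6 lower, beside 14.8% and 5.10% of all genes. Without overlap, 5 members lay higher and 9 lower in DTC, beside 31.4% and 13.2% of all genes. Slc2a3, Hk3, Gapdh, Pgk1 and Pfkfb1 rose, and Slc2a1, Pfkl, Pfkfb4, Aldoa, Slc16a3 and Pdk2 fell. Both comparisons use the same DTC libraries, so their values are given side by side and their overlap is not read as a result. The count of lower members was sensitive to libraries: it was 2 without mCherryHigh 5, 3 without mCherryHigh 6 and 3 without DTC 1. The share of all genes called lower fell in the same runs, to 3.63%, 4.34% and 2.99%. Quantile normalization gave 3 higher and 6 lower (8.20% and 7.79% of all genes), edgeR 4 and 9 (15.9% and 10.8%), DESeq2 5 and 10 (21.3% and 10.7%), and rescaling to genes with unique windows 5 and 4 (25.8% and 5.55%).

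Without DTC 3, 14 of the 16 members called against mCherryLow kept their call (all but Gpi1 and Pfkfb2), and 10 of the 11 called against mCherryHigh (all but Slc2a1). The differences from mCherryLow and from mCherryHigh were then 5.02 and 5.00 for Gapdh, 2.92 and 3.01 for Pgk1, and 4.25 and 3.43 for Hk3. They were -1.51 and -1.14 for Aldoa, -2.17 and -2.27 for Pfkfb4, and -2.28 and -2.31 for Slc16a3.

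**Figure D1:**
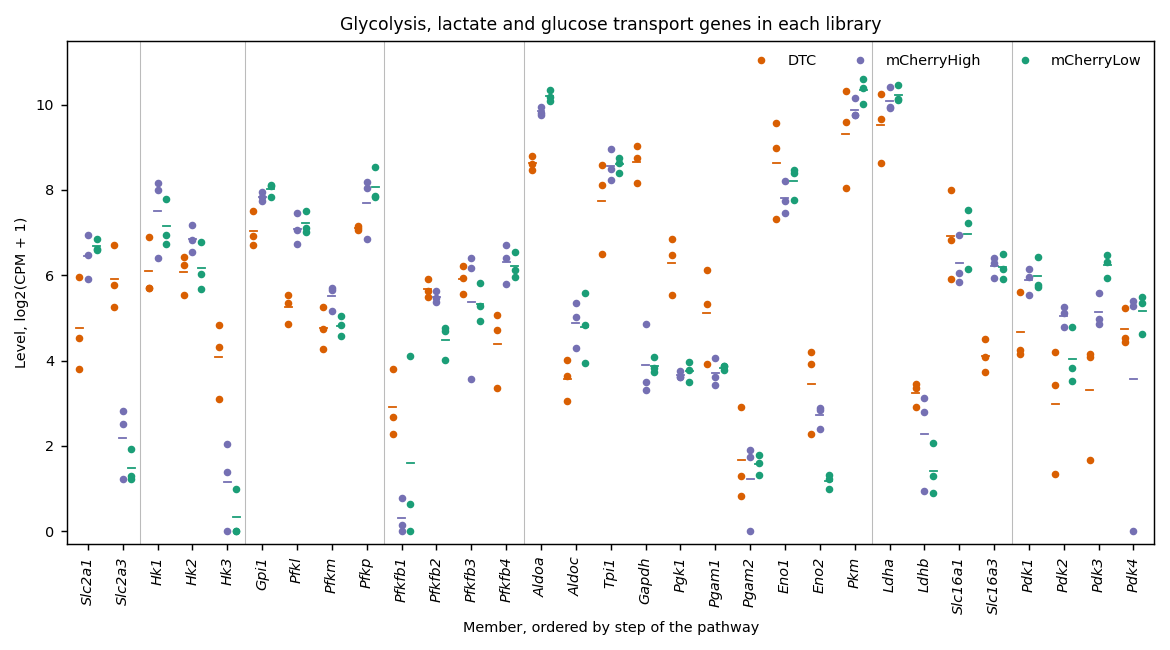
Level of each of the 31 members as log2(CPM + 1) in every library, ordered along the pathway; points are libraries, short bars are group means, and grey lines separate the steps. Slc2a3, Hk3, Gapdh and Pgk1 lie higher in all 3 DTC libraries than in the other 6, while Pfkl, Pfkfb4, Aldoa and Slc16a3 lie lower.

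The pathway opens with glucose entry. Slc2a3 encodes GLUT3, a high-affinity glucose transporter best known from neurons and leukocytes. It was at 54.04, 37.03 and 104 CPM in DTC, 4.66, 1.33 and 6.03 CPM in mCherryHigh and 1.46, 1.31 and 2.78 CPM in mCherryLow. All 3 DTC libraries stood above the other 6, with DTC 3, the library with the largest macrophage sum, highest. The rise was 4.44 ± 0.57 (SE) on the log2(CPM + 1) scale over mCherryLow (adjusted p = 0.000430) and 3.74 ± 0.63 over mCherryHigh (adjusted p = 0.00291), or 21.7-fold and 13.3-fold in CPM + 1. Without DTC 3 it was 4.04 (adjusted p = 0.00315) and 3.34 (adjusted p = 0.0221).

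Slc2a1, the gene of the widely expressed transporter GLUT1, moved the other way. It was at 22.1, 60.9 and 12.99 CPM in DTC, 59.0, 122 and 87.4 CPM in mCherryHigh and 97.5, 115 and 96.0 CPM in mCherryLow. DTC lay below mCherryLow throughout, whereas DTC 2 overlapped mCherryHigh 1. The fall was -1.93 ± 0.52 against mCherryLow (adjusted p = 0.0107) and -1.68 ± 0.56 against mCherryHigh (adjusted p = 0.0426). The call against mCherryHigh was lost without DTC 3 (-1.20, adjusted p = 0.142), without DTC 1 (adjusted p = 0.132), without mCherryHigh 5 (adjusted p = 0.136), without mCherryHigh 6 (adjusted p = 0.0861) and under quantile normalization (0.0702). Per kilobase of transcript, Slc2a3 made up 66.8%, 33.4% and 86.8% of the level of the pair in DTC, 6.10%, 0.885% and 5.38% in mCherryHigh, and 1.22%, 0.936% and 2.33% in mCherryLow. The pair was led by Slc2a3 in DTC 1 and 3 and by Slc2a1 in all other libraries, and DTC 2, with the lowest macrophage sum of the group, had the lowest Slc2a3 share. The part of leukocytes in these levels was not tested.

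Low genes as a whole were often higher in DTC, and 5 members were low in mCherryLow. Of the 7777 genes tested with a mean under 5 CPM in mCherryLow, 66.9% were called higher in DTC, against 11.04% of the 10924 genes at 5 CPM or more. The filter selected part of these low genes: 2353 of the 7777 reached 1 CPM in 0 mCherryLow libraries and were tested only through DTC, where they are high (97.1% called higher). Of the 1396 that reached 1 CPM in all 3 mCherryLow libraries, 43.6% were called higher. The members among these low genes were 5 (Slc2a3, Hk3, Eno2, Ldhb and Pgam2), of which 4 were called higher. Among all such low genes, 2.34% reached a DTC mean as high as that of Slc2a3, 22.5% that of Hk3, 35.7% that of Eno2 and 47.0% that of Ldhb. Of the other 26 members, 3 were called higher and 9 lower, against 11.04% and 14.9% of all genes at 5 CPM or more.

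**Figure D2:**
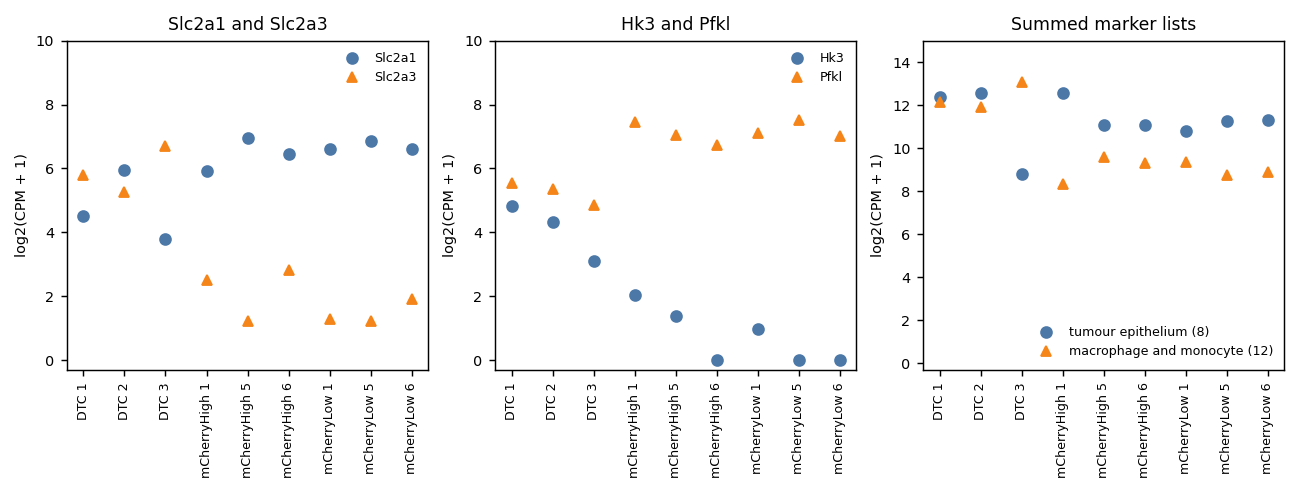
Levels as log2(CPM + 1) in each library, each point a library: Slc2a1 with Slc2a3, Hk3 with Pfkl, and the summed levels of 8 tumour epithelial and 12 macrophage and monocyte markers. Slc2a3 passes Slc2a1 in DTC 1 and DTC 3, and the macrophage sum is higher in all 3 DTC libraries, from 3883 to 8702 CPM, than in the other 6.

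Hexokinases trap glucose in the cell as glucose 6-phosphate. Hk3, the isoform best known from myeloid cells, was at 27.4, 19.0 and 7.58 CPM in DTC, 3.11, 1.63 and 0 CPM in mCherryHigh and 0.975, 0 and 0 CPM in mCherryLow. Every DTC library lay above the other 6, and the 0 of mCherryHigh 6 allows up to 0.307 CPM, those of mCherryLow 5 and 6 up to 0.282 and 0.253 CPM. Among the DTC libraries it was lowest in DTC 3, which had the largest macrophage sum, but that value rests on 7 reads. The part of myeloid cells in the level of Hk3 was not tested. Since no mCherryLow library reached 1 CPM, Hk3 entered that comparison only through DTC, where it is high, and its test there is no independent support. The rise was 3.76 ± 0.63 over mCherryLow (adjusted p = 0.00104) and 2.94 ± 0.77 over mCherryHigh (adjusted p = 0.0161), and the call against mCherryHigh was lost without DTC 1 (adjusted p = 0.0773), without mCherryHigh 6 (adjusted p = 0.0643) in edgeR (0.0515) and under quantile normalization (0.197). Hk1, the housekeeping isoform, averaged 73.6 ± 39.2 CPM in DTC, 208 ± 109 CPM in mCherryHigh and 149 ± 62.1 CPM in mCherryLow (SD, n = 3 each), and its difference did not pass (adjusted p = 0.0749 against mCherryLow and 0.0620 against mCherryHigh). Hk2, the isoform often raised in tumours, averaged 68.3 ± 20.5, 116 ± 26.8 and 74.4 ± 30.9 CPM in the same groups and did not pass either (adjusted p = 0.877 and 0.152). Hk1 had the largest mean share of the 3 hexokinases per kilobase in each group, at 48.3% in DTC, 65.3% in mCherryHigh and 70.5% in mCherryLow, though Hk2 exceeded it in DTC 1 and mCherryHigh 6. With median in place of longest transcript lengths these shares of Hk1 were 79.1%, 86.2% and 89.5%.

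Gpi1 interconverts glucose 6-phosphate and fructose 6-phosphate. It was at 104, 180.3 and 120.1 CPM in DTC, 211, 226 and 248 CPM in mCherryHigh and 228, 271 and 276 CPM in mCherryLow, with DTC below both. Its fall against mCherryLow (-0.97 ± 0.34, adjusted p = 0.0377) was near the threshold and was lost without any of mCherryLow 1, 5 and 6, DTC 1 and DTC 3 (adjusted p between 0.0537 and 0.143) and under quantile normalization (0.220). Against mCherryHigh it did not pass (-0.79 ± 0.35, adjusted p = 0.103).

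Phosphofructokinase commits fructose 6-phosphate to glycolysis and exists as liver, muscle and platelet isoforms. Pfkl, the liver-type isoform, was at 45.7, 39.9 and 28.1 CPM in DTC, 174, 132 and 105 CPM in mCherryHigh and 138, 181 and 129 CPM in mCherryLow. The highest DTC library lay well under the lowest of the other 6. It fell by 3.89-fold in CPM + 1 against mCherryLow (-1.96 ± 0.37, adjusted p = 0.00179) and by 3.53-fold against mCherryHigh (-1.82 ± 0.39, adjusted p = 0.00709), and both calls held in every alternative run, including without DTC 3 (-1.76, adjusted p = 0.00496, and -1.63, adjusted p = 0.0242). Pfkp, the platelet-type isoform, was at 136, 133 and 141 CPM in DTC, 115, 262 and 289 CPM in mCherryHigh and 231, 228 and 369.7 CPM in mCherryLow. DTC lay below mCherryLow but above mCherryHigh 1. Its fall against mCherryLow (-0.97 ± 0.34, adjusted p = 0.0348) was lost without DTC 1 (adjusted p = 0.0924), DTC 2 (0.0522), mCherryLow 1 (0.0649) or mCherryLow 6 (0.164), and under quantile normalization (0.259). Pfkm, the muscle-type isoform, averaged 27.2 ± 9.52 CPM in DTC, 45.3 ± 8.93 CPM in mCherryHigh and 27.5 ± 4.68 CPM in mCherryLow (SD, n = 3 each) and passed in no comparison. Per kilobase, Pfkl made up 19.2 ± 2.96% of the 3 isoforms in DTC, 35.5 ± 13.3% in mCherryHigh and 35.0 ± 8.81% in mCherryLow (SD, n = 3 each).

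The PFKFB enzymes make and break fructose 2,6-bisphosphate, the activator of phosphofructokinase. Pfkfb4 was at 25.1, 9.26 and 32.5 CPM in DTC, 54.4, 103 and 84.3 CPM in mCherryHigh and 93.1, 60.8 and 68.2 CPM in mCherryLow. DTC lay below the other 6 libraries, which overlapped between the 6-week groups. It fell by 3.55-fold in CPM + 1 against mCherryLow (-1.83 ± 0.50, adjusted p = 0.0119) and by 3.796-fold against mCherryHigh (-1.92 ± 0.52, adjusted p = 0.0191). The call against mCherryHigh was lost without mCherryHigh 5 (adjusted p = 0.0718) or mCherryHigh 6 (adjusted p = 0.0524). Pfkfb2, the heart-type isoform, was at 44.1, 48.7 and 59.5 CPM in DTC, 40.4, 48.7 and 43.6 CPM in mCherryHigh and 15.1, 24.8 and 26.1 CPM in mCherryLow, so that mCherryLow was the low group. Its rise in DTC over mCherryLow (1.20 ± 0.43, adjusted p = 0.0396) was lost when any of the 6 libraries was left out (adjusted p between 0.0547 and 0.141) and in edgeR and DESeq2 (0.276 and 0.162).

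Pfkfb1, the liver-type isoform, was at 3.81, 5.36 and 12.99 CPM in DTC, 0, 0.102 and 0.716 CPM in mCherryHigh and 0, 0.563 and 16.4 CPM in mCherryLow. All these values rest on few reads except mCherryLow 6, and the 0 of mCherryHigh 1 allows up to 4.66 CPM, above DTC 1. No mCherryHigh library reached 1 CPM, so Pfkfb1 entered that comparison only through DTC, where it is high. It was called higher than in mCherryHigh (2.61 ± 0.65, adjusted p = 0.0135), though not without mCherryHigh 5 (adjusted p = 0.0567) or under quantile normalization (0.301), and did not pass against mCherryLow (adjusted p = 0.278). Pfkfb3, the isoform with the highest ratio of kinase to phosphatase activity, averaged 59.8 ± 13.9 CPM in DTC, 55.3 ± 39.0 CPM in mCherryHigh and 40.7 ± 13.2 CPM in mCherryLow (SD, n = 3 each) and passed in no comparison. Per kilobase, Pfkfb4 made up 17.8 ± 6.72% of the 4 isoforms in DTC, 52.6 ± 4.61% in mCherryHigh and 57.4 ± 13.9% in mCherryLow. With median transcript lengths these shares were 9.98%, 34.5% and 41.0%, and in mCherryHigh Pfkfb2 (32.9%) and Pfkfb3 (32.4%) then lay close to Pfkfb4. Pfkfb3 had the largest mean share in DTC, at 36.7 ± 2.71%.

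**Figure D3:**
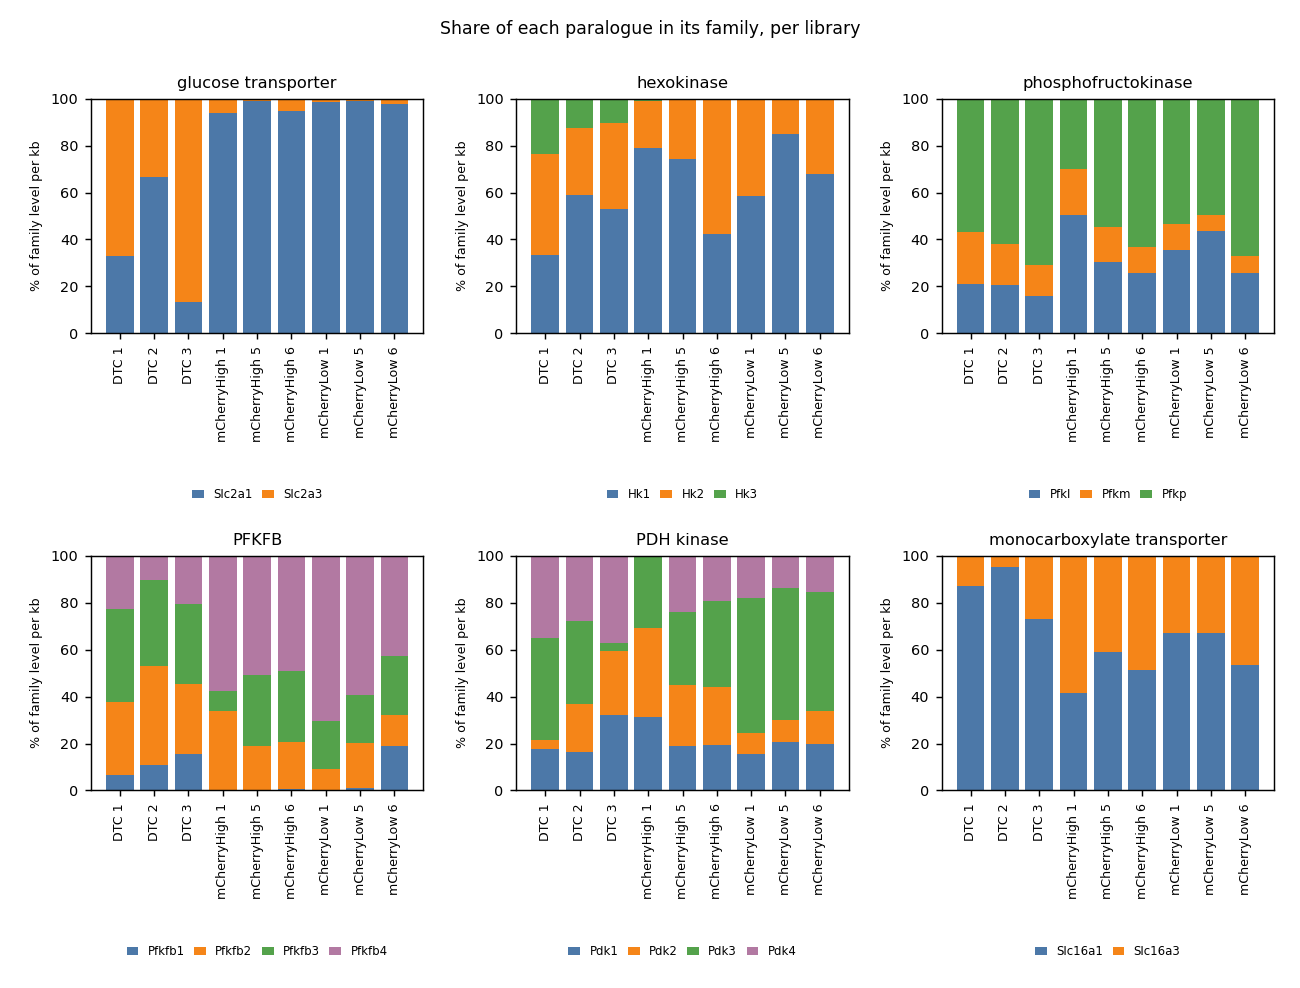
Share of each paralogue in the summed level per kilobase of its family (%), 1 stacked bar per library, for 6 families. In DTC, Slc2a3 takes 33.4% to 86.8% of the glucose transporter pair and Pfkfb4 10.2% to 22.7% of its family, while in the other 6 libraries Slc2a3 takes at most 6.10% and Pfkfb4 at least 42.8%.

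Aldolase splits fructose 1,6-bisphosphate into triose phosphates. Aldoa, the main isoform in all groups, was at 389.7, 441 and 353 CPM in DTC, 988, 898 and 869.8 CPM in mCherryHigh and 1093, 1289 and 1165 CPM in mCherryLow. The 3 groups did not overlap, with DTC lowest. It fell by 3.00-fold in CPM + 1 against mCherryLow (-1.58 ± 0.31, adjusted p = 0.00198) and by 2.33-fold against mCherryHigh (-1.22 ± 0.31, adjusted p = 0.0143). The call against mCherryHigh was lost without DTC 1 (adjusted p = 0.0656), mCherryHigh 5 (adjusted p = 0.0537), without mCherryHigh 6 (adjusted p = 0.0558) or under quantile normalization (0.137). Aldoc, the brain-type isoform, averaged 11.3 ± 3.92 CPM in DTC, 30.02 ± 10.7 CPM in mCherryHigh and 29.7 ± 16.5 CPM in mCherryLow (SD, n = 3 each) and passed in no comparison. Tpi1, which interconverts the triose phosphates, averaged 249.8 ± 148, 385 ± 99.2 and 388 ± 46.3 CPM in the same groups and did not pass (adjusted p = 0.164 against mCherryLow and 0.231 against mCherryHigh). Its lowest value was 89.8 CPM in DTC 3.

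Gapdh, which oxidises glyceraldehyde 3-phosphate and makes NADH, had the largest rise of the set. It was at 432, 519.8 and 284 CPM in DTC, 27.96, 8.98 and 10.3 CPM in mCherryHigh and 12.2, 15.9 and 13.2 CPM in mCherryLow, with a wide gap between DTC and the other groups. The difference was 4.77 ± 0.38 over mCherryLow (adjusted p = 0.000185) and 4.75 ± 0.48 over mCherryHigh (adjusted p = 0.000573). Summed with the other genes of the table that share a window with it, Gapdh came to 1002, 849.6 and 981 CPM in DTC, 193, 63.2 and 63.4 CPM in mCherryHigh and 99.9, 97.8 and 76.6 CPM in mCherryLow. DTC lay above the other 6 libraries in this sum. It holds only reads counted for genes in the table, so it cannot show how reads matching several genes were treated.

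Pgk1, which makes the first ATP of the pathway, also rose. It was at 87.5, 115 and 45.5 CPM in DTC, 12.4, 11.2 and 11.1 CPM in mCherryHigh and 10.2, 14.6 and 12.7 CPM in mCherryLow. DTC lay above the other 6 libraries, while mCherryHigh and mCherryLow overlapped. It rose by 2.54 ± 0.47 over mCherryLow (adjusted p = 0.00159) and 2.63 ± 0.48 over mCherryHigh (adjusted p = 0.00387). Pgam1, the mutase of the following step, was at 38.8, 69.2 and 14.1 CPM in DTC, 15.5, 11.2 and 9.82 CPM in mCherryHigh and 12.7, 13.5 and 13.6 CPM in mCherryLow. DTC 1 and 2 lay above the other groups, DTC 3 lay above mCherryLow and within mCherryHigh, and neither comparison passed (adjusted p = 0.0930 against mCherryLow and 0.102 against mCherryHigh). Pgam2, the muscle mutase, was at most 6.49 CPM in any library and passed in no comparison.

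Members with few unique windows lay higher in DTC than the rest of the set, and so did such genes across the table. Of the 10 members under 90% unique windows, 4 were called higher and 2 lower against mCherryLow, with a median of 0.80. Among the 21 members at 90% or above, 3 were called higher and 7 lower, with a median of -0.86. Over all genes averaging 5 CPM or more, the median difference was 0.79 at under 25% unique windows, 1.20 at 25% to 50%, 0.75 at 50% to 75%, 0.40 at 75% to 90% and 0.03 above that. Against mCherryHigh the same ranges gave 0.81, 1.31, 0.89, 0.57 and 0.06, while between mCherryHigh and mCherryLow the medians stayed between -0.09 and 0.07. How the authors treated reads that map to several genes is not given in the sources used here, and whether it was alike for the DTC columns was not tested. The rises of Gapdh and Pgk1 are therefore uncertain as changes of those genes, whereas Slc2a3, Hk3, Slc2a1, Pfkl, Pfkfb4, Slc16a3 and Pdk3 had at least 99% unique windows. Lars2, named above, also had 99.9% unique windows, yet averaged 31470 CPM in DTC and 427 CPM in mCherryLow. The reason for that gap was not tested.

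**Figure D4:**
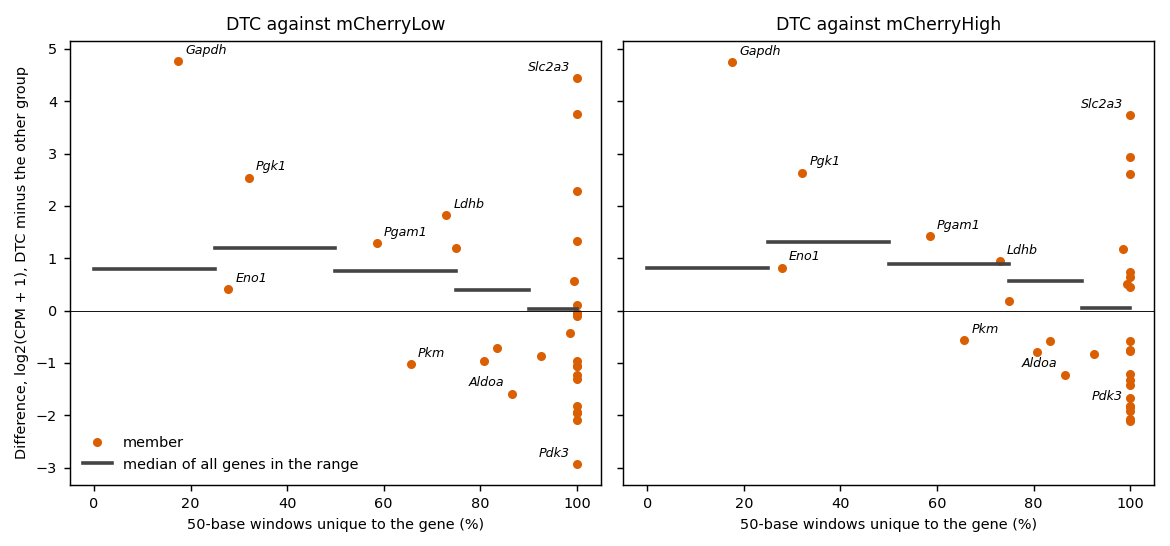
Difference of each member, DTC minus mCherryLow (left) and DTC minus mCherryHigh (right), in log2(CPM + 1), against the percentage of its 50-base windows found in no other gene; points are members and thick lines are medians, in each range, of all genes averaging 5 CPM or more. Gapdh and Pgk1 lie high at 17.5% and 32.04% unique windows, and the median of all genes is near 0 (0.03 and 0.06) only in the range from 90% to 100%.

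Enolase makes phosphoenolpyruvate. Eno2, the neuronal isoform, was at 3.81, 14.1 and 17.3 CPM in DTC, 6.21, 4.29 and 6.44 CPM in mCherryHigh and 0.975, 1.502 and 1.35 CPM in mCherryLow, with mCherryLow below all other libraries. It rose in DTC over mCherryLow (2.28 ± 0.64, adjusted p = 0.0132), a call lost under quantile normalization (0.48, adjusted p = 0.615), and did not pass against mCherryHigh (0.74 ± 0.69, adjusted p = 0.440). Eno1, the main isoform, averaged 474 ± 299 CPM in DTC, 228 ± 61.5 CPM in mCherryHigh and 303 ± 74.4 CPM in mCherryLow (SD, n = 3 each) and passed in no comparison. Pkm, the pyruvate kinase gene whose M1 and M2 isoforms are not separated in the table, was at 775, 1271 and 262 CPM in DTC, 861, 1132 and 863 CPM in mCherryHigh and 1349, 1549 and 1033 CPM in mCherryLow. DTC 3 and DTC 1 lay below all other libraries, while DTC 2 lay above mCherryHigh and within mCherryLow. No comparison passed (adjusted p = 0.121 against mCherryLow and 0.421 against mCherryHigh).

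Lactate dehydrogenase A favours making lactate and lactate dehydrogenase B favours using it. Ldha was at 815, 1219.9 and 396 CPM in DTC, 1364, 986 and 975.1 CPM in mCherryHigh and 1095, 1418 and 1124 CPM in mCherryLow. The groups overlapped, and neither comparison passed (adjusted p = 0.181 against mCherryLow and 0.328 against mCherryHigh). Ldhb was at 9.89, 9.26 and 6.49 CPM in DTC, 7.77, 5.92 and 0.920 CPM in mCherryHigh and 1.46, 0.845 and 3.204 CPM in mCherryLow, with DTC above mCherryLow and overlapping mCherryHigh. It rose over mCherryLow (1.82 ± 0.57, adjusted p = 0.0235), but the difference was -0.071 under quantile normalization, and the call was lost in edgeR (adjusted p = 0.145), in DESeq2 (0.116) and without DTC 1 (0.0720), mCherryLow 1 (0.0659) or mCherryLow 5 (0.0946). Per kilobase, Ldha made up at least 97.8% of the pair in every library.

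The exporter side differed more. Slc16a3 encodes MCT4, a monocarboxylate transporter known for lactate export from glycolytic cells. It was at 15.98, 12.2 and 21.6 CPM in DTC, 77.7, 83.6 and 60.6 CPM in mCherryHigh and 70.2, 89.0 and 59.2 CPM in mCherryLow. DTC lay below all other libraries. The gene fell by 4.24-fold in CPM + 1 against mCherryLow (-2.08 ± 0.43, adjusted p = 0.00265) and by 4.33-fold against mCherryHigh (-2.11 ± 0.43, adjusted p = 0.00594), and both calls held in every alternative run. Slc16a1, which encodes MCT1 and carries lactate in either direction, averaged 142 ± 101 CPM in DTC, 81.2 ± 36.3 CPM in mCherryHigh and 134 ± 58.6 CPM in mCherryLow (SD, n = 3 each) and passed in no comparison. Per kilobase, Slc16a3 made up 12.7%, 4.64% and 27.1% of the pair in DTC, between 41.0% and 58.6% in mCherryHigh and between 32.7% and 46.3% in mCherryLow. With median transcript lengths the share was 27.9%, 11.51% and 49.8% in DTC, between 65.0% and 79.1% in mCherryHigh and between 56.4% and 69.7% in mCherryLow, so that the leading gene of the pair in both 6-week groups depends on the length used.

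Pyruvate dehydrogenase kinases phosphorylate and inhibit the complex that feeds pyruvate to the citric acid cycle. Pdk3 was at 16.7, 16.1 and 2.16 CPM in DTC, 27.96, 30.4 and 47.2 CPM in mCherryHigh and 78.001, 59.8 and 88.6 CPM in mCherryLow, and the 3 groups did not overlap. It fell by 7.66-fold in CPM + 1 against mCherryLow (-2.94 ± 0.64, adjusted p = 0.00374), and without DTC 3 the difference was -2.12 (adjusted p = 0.00484). The difference from mCherryHigh was -1.84 ± 0.70 and did not pass (adjusted p = 0.0682). Pdk1, a known HIF-1 target, was at 16.7, 18.03 and 47.6 CPM in DTC, 69.9, 45.5 and 60.9 CPM in mCherryHigh and 51.7, 53.8 and 84.6 CPM in mCherryLow. DTC 1 and 2 were the lowest and DTC 3 lay within mCherryHigh. Its fall against mCherryLow (-1.30 ± 0.49, adjusted p = 0.0481) was lost without DTC 1 (adjusted p = 0.164), DTC 2 (0.130) or any mCherryLow library (between 0.0697 and 0.157).

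Pdk2, the most widely expressed kinase of the family, was at 1.52, 9.74 and 17.3 CPM in DTC, 37.3, 26.7 and 33.6 CPM in mCherryHigh and 13.2, 10.5 and 26.4 CPM in mCherryLow. mCherryHigh was the high group and DTC overlapped mCherryLow. Its fall against mCherryHigh (-2.07 ± 0.72, adjusted p = 0.0497) was at the threshold and was lost without DTC 1 (adjusted p = 0.157), DTC 2 (0.0769) or any mCherryHigh library (between 0.0787 and 0.111). Pdk4, known for its rise in fasting, averaged 26.4 ± 9.002 CPM in DTC, 26.3 ± 22.8 CPM in mCherryHigh and 35.8 ± 10.6 CPM in mCherryLow (SD, n = 3 each) and passed in no comparison. Its mCherryHigh mean includes a 0 in mCherryHigh 1, the shallowest library, while mCherryHigh 5 and 6 were at 38.0 and 40.9 CPM. Per kilobase of longest transcript, Pdk3 led the family in mCherryLow, at 54.9 ± 3.59%, while no gene led throughout DTC. Pdk3 led in DTC 1 and 2, at 43.6% and 35.7%, and Pdk4 in DTC 3, at 37.1%, where Pdk3 was at 3.59% on 2 reads. With median transcript lengths Pdk4 led in all 3 DTC libraries, at 47.9%, 39.6% and 50.3%, so the leading gene in DTC 1 and 2 depends on the length used.

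**Figure D5:**
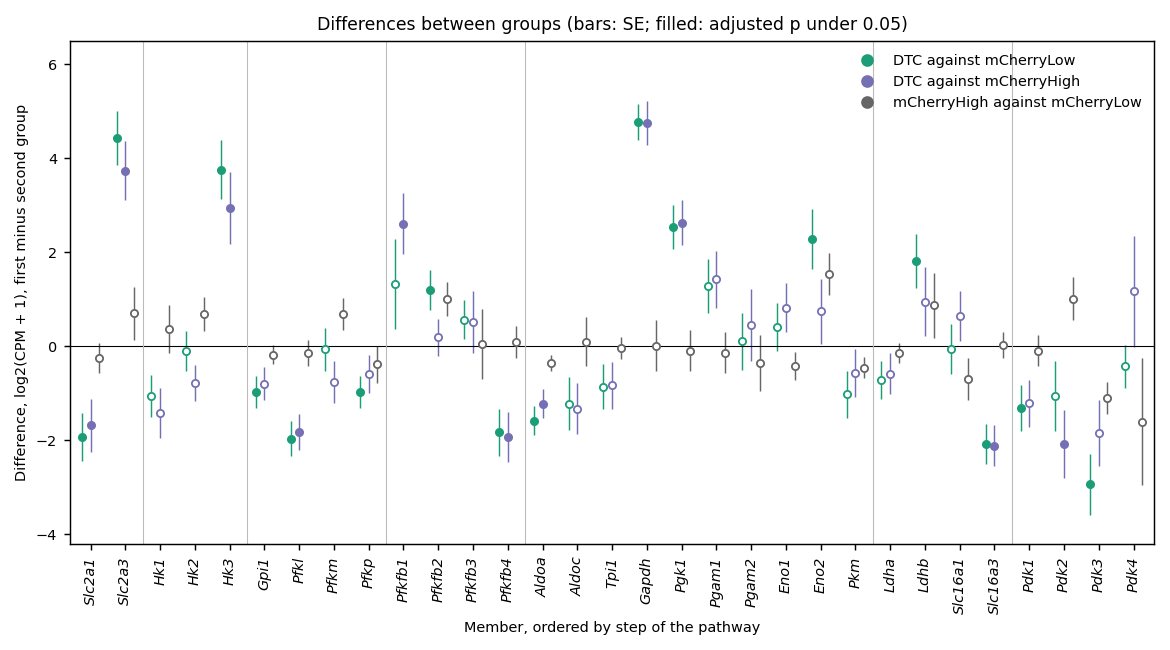
Difference of each member in log2(CPM + 1) for DTC minus mCherryLow, DTC minus mCherryHigh and mCherryHigh minus mCherryLow; bars are SE and filled points passed at an adjusted p under 0.05 (limma). Filled points run from -2.94 (Pdk3) to 4.77 (Gapdh) in the DTC comparisons, and no point is filled for mCherryHigh minus mCherryLow.

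Between mCherryHigh and mCherryLow, the groups parted by the Gstt1 reporter, no member passed the test. Of the 29 members tested (all but Hk3 and Pfkfb1, which were too low), 0 were called higher and 0 lower by limma, beside 0% and 0% of all 15437 genes tested. edgeR and DESeq2 also called 0 members, although DESeq2 called 49 genes higher and 99 lower. The median difference was -0.09, against 0.09 for all genes. An unadjusted p under 0.05 was found for 3 members, and for 9.38% of all genes tested (1448 by limma and 1221 by edgeR). These were Eno2 (1.54 ± 0.45, limma adjusted p = 0.457), Pfkfb2 (1.01 ± 0.36, limma adjusted p = 0.488) and Pdk3 (-1.10 ± 0.33, limma adjusted p = 0.484), whose library values stand above. In each, the groups did not overlap: Eno2 and Pfkfb2 were higher in all 3 mCherryHigh libraries than in all 3 mCherryLow libraries, and Pdk3 was lower. Slc2a3 differed by 0.70 ± 0.57 (adjusted p = 0.747) and Pfkl by -0.14 ± 0.28 (adjusted p = 0.930), with overlapping groups. In all, 4 members lay higher and 2 lower in mCherryHigh without overlap, against 10.2% and 5.78% of all genes. Gstt1 itself, the basis of the sort, was at 60.6, 48.4 and 50.9 CPM in mCherryHigh and 15.1, 11.9 and 29.4 CPM in mCherryLow.

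Other genes of glucose and pyruvate handling were counted from a list of 49 that holds none of the 31. Against mCherryLow, 12 of the 46 tested rose and 9 fell in DTC, beside 34.2% and 8.87% of all genes, with a median of -0.42 against 0.59. Those with the smallest p were Slc2a12 and Slc2a10, further glucose transporters, Pck1, the entry enzyme of gluconeogenesis, Epas1, which encodes HIF-2 alpha, Slc16a7, which encodes MCT2, and the phosphoglucomutase gene listed as Pgm1. Epas1 was at 128, 89.2 and 259 CPM in DTC, 15.5, 16.3 and 48.2 CPM in mCherryHigh and 10.2, 4.04 and 16.3 CPM in mCherryLow, with DTC above both (3.86 ± 0.56 over mCherryLow, adjusted p = 0.000554, and 2.58 ± 0.54 over mCherryHigh, adjusted p = 0.00654). It is also strongly expressed in lung endothelium, whose markers were higher in DTC too, and their part in its level was not tested. Slc2a12 rose by 4.37 ± 0.60, Pck1 by 4.01 ± 0.57, Slc16a7 by 3.43 ± 0.58 and Slc2a10 by 3.57 ± 0.67 over mCherryLow, all from under 3 CPM there, and Pgm1 fell (-2.15 ± 0.46). Slc2a12 and Pck1 were under 1 CPM in every mCherryLow library and entered only through DTC.

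Against mCherryHigh, 10 of the 48 neighbours tested rose and 9 fell, beside 23% and 7.19% of all genes, with a median of -0.54 against 0.55. The smallest p values were those of Pck1, Pgm1, Slc2a8, Slc16a7, Slc2a12 and Epas1. Slc2a8, the gene of the intracellular transporter GLUT8, fell (-2.68 ± 0.51, adjusted p = 0.00436), as did Pgm1 (-2.55 ± 0.38, adjusted p = 0.00197). Pck1 was at 20.6, 15.1 and 30.3 CPM in DTC and 0, 0.102 and 0 CPM in mCherryHigh (4.42 ± 0.63, adjusted p = 0.00176). No mCherryHigh library reached 1 CPM, so Pck1 entered this comparison only through DTC, where it is high, and its test is no independent support. Between mCherryHigh and mCherryLow, 0 of the 42 tested were called by limma, edgeR or DESeq2, and 1 had an unadjusted limma p under 0.05.

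The promoters of the members were read for ACGTG, 1 form of the core of the hypoxia response element. Windows from 250 bases before to 50 after each start site were taken from RefSeq (build GRCm38.p6), where 30 of the 31 members were matched, all but Slc2a3. These letters, searched on both strands, were found in 18 of the 30 (60%), against 21.8% of all 27025 genes with a window, a description without a test. The longer CACGTG, which contains it, was in 6 of the 30 (20%), against 8.09% of all genes. A gene counts here if any of its windows matches, and genes differ in their number of windows. Counted by window, ACGTG was in 44.9% of the 49 windows of members, against 19.6% of all 32851 windows. By window, the shares for CACGTG were 12.2% and 7.15%. Of the 5 members called lower in both DTC comparisons, Slc2a1, Slc16a3 and Aldoa held ACGTG, but not CACGTG, in a window, and Pfkl and Pfkfb4 did not. Among those called higher in both, Hk3, Gapdh and Pgk1 also held ACGTG, and Slc2a3 had no window. A match is not a binding site, and its absence concerns these windows only. It also concerns ACGTG only: the other form of the core, GCGTG, was not searched. The Pfkl and Pfkfb4 windows below do hold GCGTG. Below are the windows of Slc2a1 (chr4:119108495-119108794, plus strand) and Slc16a3 (chr11:120948817-120949116, plus strand), with matches on either strand in capitals, and those of Pfkl (chr10:78009758-78010057, minus strand) and Pfkfb4 (chr9:108991652-108991951, plus strand), without. The Slc2a1 match starts at -36 from the start site, and those of Slc16a3 at -27 and -14.
Slc2a1: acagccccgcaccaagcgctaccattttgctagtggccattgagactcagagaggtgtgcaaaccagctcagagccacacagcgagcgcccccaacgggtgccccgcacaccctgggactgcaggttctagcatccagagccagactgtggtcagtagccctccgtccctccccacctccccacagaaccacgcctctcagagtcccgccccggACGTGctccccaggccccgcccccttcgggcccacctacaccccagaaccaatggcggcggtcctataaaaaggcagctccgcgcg
Slc16a3: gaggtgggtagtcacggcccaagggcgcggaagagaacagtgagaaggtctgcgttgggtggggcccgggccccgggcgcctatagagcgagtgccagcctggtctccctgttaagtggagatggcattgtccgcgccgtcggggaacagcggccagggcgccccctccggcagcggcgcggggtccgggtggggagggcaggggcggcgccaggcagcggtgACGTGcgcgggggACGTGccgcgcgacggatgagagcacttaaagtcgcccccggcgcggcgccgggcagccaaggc
Pfkl: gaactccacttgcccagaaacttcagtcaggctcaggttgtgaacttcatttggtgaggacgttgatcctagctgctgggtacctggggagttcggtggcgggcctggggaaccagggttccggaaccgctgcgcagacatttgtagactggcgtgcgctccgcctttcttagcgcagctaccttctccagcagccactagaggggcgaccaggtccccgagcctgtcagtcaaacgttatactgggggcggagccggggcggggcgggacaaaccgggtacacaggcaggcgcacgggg
Pfkfb4: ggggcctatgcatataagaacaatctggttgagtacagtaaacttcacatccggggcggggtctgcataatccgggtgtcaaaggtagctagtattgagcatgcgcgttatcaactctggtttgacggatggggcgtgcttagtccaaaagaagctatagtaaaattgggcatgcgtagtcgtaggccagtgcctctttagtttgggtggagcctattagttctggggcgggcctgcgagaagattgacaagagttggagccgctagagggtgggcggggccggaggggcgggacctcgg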

How the data were processed

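RNA came from GFP-sorted cells of mouse lungs, 3 libraries in each of 3 groups. An RNAqueous-Micro kit, SMART-seq cDNA and Nextera XT were used, per the labels' protocols. The genome build was mm9, per the submitters' processing notes, and the aligner, counter and annotation are not given in these sources. The authors deposited CPM values, counts scaled to each library's total. Values were whole multiples of 1 read (100% within 0.01 read), from which whole reads and totals were recovered.

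Each comparison kept the genes that reached 1 CPM in 3 or more of its 6 libraries. On log2(CPM + 1), limma 3.58.1 (R 4.3.3) was fitted with a trended variance, and its two-sided p-values were adjusted over all genes by Benjamini-Hochberg (threshold 0.05). A log2 difference on this scale understates the change of low genes. Alternatives were edgeR 4.0.16 and, on the same whole reads, DESeq2 1.42.0, other pseudocounts, filters and scalings, 1 fit of all 9 libraries, library weights, the label number as a block, the code series of the labels, and leaving out each library. Genes with unique windows alone, and rescaling to them, were chosen after seeing the data. Of the gene IDs, 94.0% matched GENCODE. Levels per kilobase use the longest annotated transcript. The fit was tested on simulated data. Members were picked by symbol through no value or threshold, but this set, the gene lists and the tests were chosen with earlier results of these data known. Named are all members, with values in every library for Slc2a3, Pfkl and those passing in any comparison or with an unadjusted p under 0.05 between mCherryHigh and mCherryLow, and up to 6 neighbours per comparison with the smallest p.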

Additional observations from a re-analysis of the deposited data

How the results depend on the processing

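Between mCherryHigh and mCherryLow, 0 members and 0 neighbours were called under every alternative run. The sign of Pfkl there turned to 0.021 with the code series as a term, and lay between -0.33 (without mCherryHigh 1) and 0.036 (without mCherryHigh 6) when libraries were left out. Same-numbered libraries of mCherryHigh and mCherryLow did not deviate together (correlations -0.20, -0.02 and 0.27 for numbers 1, 5 and 6), and not every library correlated best with its own number. With the number as a replicate block, 0 members were called and their median stayed at -0.09. DTC shares 1 number with either group, so no block could be fitted there. 

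Against mCherryLow, members called higher were 4 under quantile normalization (12.1% of all genes) and 3 among genes with unique windows alone (21 tested, 31.4% of all such genes). Members called lower were 14 under median-of-ratios scaling (16.3% of all genes). The members' median was -0.72 with a filter of 5 CPM (29 tested), where that of all genes was 0.21. It was -0.78 with median-of-ratios scaling, -0.54 with library weights, -0.97 in edgeR and -0.79 in DESeq2. Among genes with unique windows it was -0.86, and -0.24 after rescaling to them. Ldhb turned to -0.071 under quantile normalization. Leaving out each library gave 5 to 8 higher, 6 to 10 lower, 16 to 22 neighbours called and medians from -0.60 to -0.27. Of all genes, 27.7% to 33.6% were then called higher and 4.93% to 10.5% lower. Against mCherryHigh, members called higher were 3 under quantile normalization (8.20% of all genes) and 3 among genes with unique windows (20.9% of all such genes). Members called lower were 12 with library weights and 10 in DESeq2, beside 13.7% and 10.7% of all genes. Neighbours called were 10 under quantile normalization, against 19. The members' median was -0.41 under quantile normalization, -0.77 with median-of-ratios scaling, -0.38 with library weights, -0.82 in edgeR, -0.78 among genes with unique windows and -0.37 after rescaling to them. Leaving out each library gave 4 to 7 higher, 2 to 7 lower, 11 to 20 neighbours and medians from -0.75 to -0.16. Of all genes, 13.3% to 26.6% were then called higher and 2.99% to 7.65% lower. Apart from fewer genes or libraries tested, the cause was not tested. By group mean share, the leading paralogue was the same with median transcript lengths in 28 of 30 family and group combinations. The exceptions were Slc16a1 and Slc16a3 in mCherryHigh and mCherryLow.

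In DTC against mCherryLow, the calls of Pfkl, Pfkfb4, Pdk3, Slc2a1, Slc2a3 and Slc16a3 held in every alternative run. Those of Aldoa, Gapdh and Pgk1 held wherever they were tested, but the run of genes with unique windows alone left them out. Against mCherryHigh the calls of Pfkl, Slc2a3 and Slc16a3 held in every run. Those of Gapdh and Pgk1 held there too, again without the run that left them out. The call of Hk3 against mCherryLow also held, but Hk3 entered that comparison only through DTC, where it is high, so this is no independent support. Beside the losses given with each gene, the calls of Pdk1 (adjusted p = 0.0658) and Pfkfb2 (0.141) against mCherryLow were lost under quantile normalization, Pfkfb2 (0.137) and Ldhb (0.0518) with median-of-ratios scaling, Pfkp (0.0534) in 1 fit of all 9 libraries, and Gpi1 (0.0713), Pfkp (0.0745) and Pdk1 (0.0885) after rescaling to genes with unique windows. That rescaling also ended Pdk2 (0.0691) and Slc2a1 (0.0560) against mCherryHigh, testing genes with unique windows alone ended Pdk1 against mCherryLow (0.0504) and Pdk2 against mCherryHigh (0.0544), and a pseudocount of 0.5 ended Pdk2 (0.0589). With other filters, Pdk1 against mCherryLow (0.0605 without a filter and 0.0546 at 5 CPM), Pdk2 against mCherryHigh (0.0588 and 0.0563) and Slc2a1 against mCherryHigh without a filter (0.0517) were lost. The DTC libraries and mCherryHigh 1 are shallow, so values of low members there rest on few reads.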
